A study of Citrus sinensis with 10 samples.

Results

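Among the 5856 cDNA clones on a sweet orange (Citrus sinensis) array, 93 were at least 2-fold lower in fruit of a red-fleshed mutant at 170 days after flowering and at least 2-fold higher in it at 220 days. In the same clones the mutant was not 2-fold lower at 120 days and not 2-fold higher at 150 days. The mutant is Hong Anliu, and the wild type set against it is Anliu, the orange in which the mutant arose as a changed shoot. Fruit of both was collected 120, 150, 170, 190 and 220 days from flowering. RNA of the 2 genotypes was hybridised together on 2 arrays per collection, with the mutant in Cy5 on the first and in Cy3 on the second, which gave 10 arrays. The labels do not say from how many trees or fruits a collection came, or which part of the fruit was taken. The 2 arrays of a day hold the same pair of RNA extracts, so every value of a single day comes from 1 mutant and 1 wild type collection and has no biological replicate.

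The clones were chosen by their measured ratios at 120, 150, 170 and 220 days, so the ratios of those days are a description and carry no test. A ratio is the log2 of mutant over wild type, where 1 means 2-fold higher and -1 means 2-fold lower in the mutant, with the typical clone of each array set to 0. A clone counted as 2-fold different on a day only if both arrays of that day passed the threshold. The 93 clones are 36.3% of the 256 clones that were 2-fold higher at 220 days and 9.32% of the 998 that were 2-fold lower at 170 days. Clones are named by plate, row and column, and 0 of the 5856 names occur in the sweet orange gene table at hand. No gene, pathway or sequence can therefore be given for them, and carotenoid, flavonoid, sugar, acid, cell wall and ethylene genes could not be picked out.

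Sweet orange fruit passes from growth to ripening over the months sampled here. The green chloroplasts of the fruit turn into coloured chromoplasts that hold carotenoids, organic acid declines and sugar accumulates. The red flesh of Hong Anliu is known to come from lycopene, a red carotenoid that in ordinary fruit is converted onward into yellow and orange carotenoids, whereas that of blood oranges comes from anthocyanins. A bud mutant differs from its parent by a change in a shoot and shares the rest of its genome, so the pair shares most of its genetic background. A cDNA array reports how much labelled cDNA binds to each spotted clone, and clones that carry the same transcript give alike profiles.

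The arrays of 170 days ran against those of 220 days over all clones. Between arrays of the same dye orientation the correlation was -0.45 with the mutant in Cy5 and -0.49 with the mutant in Cy3. It was -0.32 and -0.28 between 150 and 170 days, -0.27 and -0.23 between 170 and 190 days, and -0.32 and -0.37 between 120 and 220 days. Between 120 and 170 days it was above 0, at 0.19 and 0.21. The other pairs of days were above 0 as well, up to 0.605 and 0.657 between 150 and 190 days. The labels state the dyes on every array, and the direction is kept as labelled, but a swap of mutant and wild type RNA on the 170-day arrays and a real reversal cannot be told apart. With the sign at 170 days turned, the 93 clones would be 2-fold higher in the mutant at both 170 and 220 days, and 0 clones would meet the conditions as labelled.

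As labelled, the median ratio of the 93 clones over the 5 collections, in order of time, was -0.17, 0.69, -2.22, -0.09 and 1.37. The SD over clones was 0.39, 0.45, 0.80, 0.62 and 0.35. The clones thus differed most from one another at 170 days, the day of the deepest difference between the genotypes. Over all clones the SD was 0.615, 0.768, 0.978, 0.705 and 0.66, so it was largest at 170 days there too. The conditions of the choice also limit the spread of the 93 on the days they use. The median SD between the dye-swapped arrays of a clone was 0.17 at 150 days and 0.10 to 0.11 on the other days. That is small beside the ratios at 170 and 220 days, but as large as the median ratio at 190 days, and at 120 days 20 clones had opposite signs on the 2 arrays. Over the 93 clones the 2 arrays correlated at 0.33 at 150 days and at 0.77 to 0.96 on the other days. Over all clones these correlations were 0.88 at 150 days and 0.78 to 0.97 on the other days. Over all clones the median ratio lay between -0.06 and 0.03 on each day.

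At 170 days the 93 clones ranged from -4.87 to -1.01 on the array with the mutant in Cy5 and from -4.68 to -1.04 on the array with the mutant in Cy3. Of them, 49 were at least 4-fold lower on both arrays and 25 at least 8-fold lower. Shares of all clones past 4-fold and 8-fold are not given here. These counts, and the 4-fold count at 220 days, are therefore a description from which nothing is read. At 220 days they ranged from 1.005 to 2.52 and from 1.01 to 2.30, and 6 were at least 4-fold higher on both arrays. In 2 of these 6, 13.B.8 and 12.A.12, the wild type signal on the array with the mutant in Cy5 was not above that of spots with no cDNA, so their ratios of 2.52 and 2.48 there are not exact folds. Their ratios on the other array were 2.17 and 2.06. The mean ratio at 220 days exceeded that at 170 days by 2.26 to 6.25, with a median of 3.64. The threshold itself set the inner end of each range: 17.0% of all clones were 2-fold lower at 170 days and 4.37% were 2-fold higher at 220 days, and the 93 were chosen for being both. The choice also leaves 0 of the 93 on the opposite side, where 7.94% of all clones were 2-fold higher at 170 days and 2.19% were 2-fold lower at 220 days.

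Deposited intensities showed the same reversal before any normalization. The ratios that chose the clones were computed from these intensities, so this is a description and no separate evidence. At 170 days the median intensity of the 93 clones was 2151 and 1408 in the mutant on the 2 arrays, against 18379 and 18137 in the wild type. At 220 days it was 16893 and 15465 in the mutant, against 2739 and 2905 in the wild type. Over all clones the mutant stood at 2645 and 2242 at 170 days, against 3985 and 4017 in the wild type, and at 3750 and 3952 at 220 days, against 2257 and 2189. At 120 days the 93 clones were dimmer in the mutant before normalization, at 989 and 1930 against 4981 and 3892. So were all clones, at 1037 and 1728 against 4580 and 3368, and the ratio near 0 at 120 days holds only after normalization. All 93 clones lay above the 95th percentile of spots with no cDNA (blanks and solvent) in both dyes on every array but 1. On the array of 220 days with the mutant in Cy5, 10 of the 93 were not above it in the wild type dye, and their ratios on the other array of that day were 1.05 to 2.28.

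**Figure D1:**
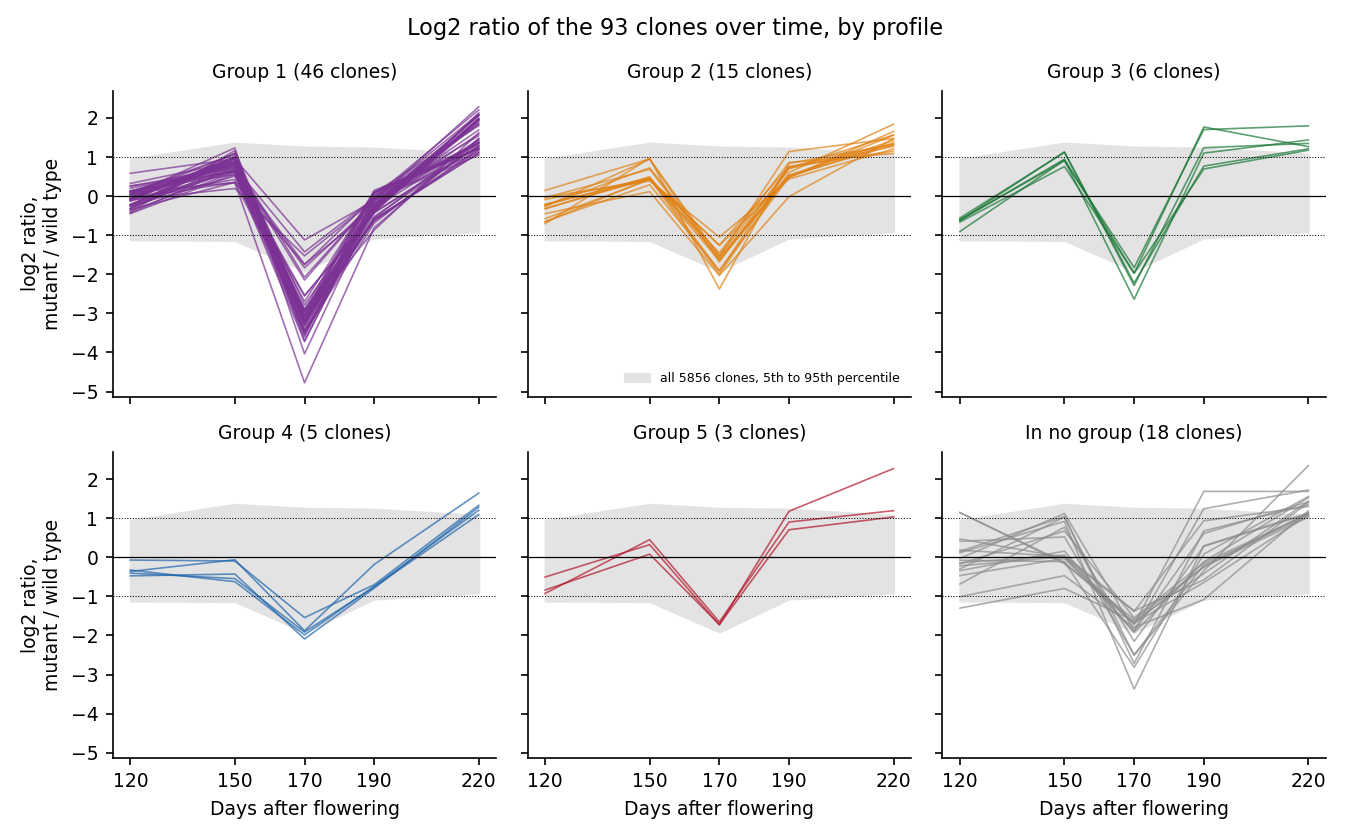
Log2 ratio, mutant over wild type (mean of both arrays, vertical axis), against days after flowering for each of the 93 clones, split by profile, with the 5th to 95th percentile of all 5856 clones in grey and dotted lines at 1 and -1. Group 1 reaches a median of -3.09 at 170 days, groups 3 and 5 stand above 0.69 at 190 days, and group 4 lies below 0 at both 150 and 190 days.

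The ratio fixes the difference between the genotypes, but not which genotype moved from day to day. Levels were therefore compared between arrays after quantile normalization, each clone relative to its own mean over both genotypes and all days. The median log2 level of the 93 clones in the mutant, in order of time, was -0.87, 0.71, -1.30, 0.42 and 0.99. The wild type medians were -0.81, 0.18, 1.07, 0.57 and -0.52. The wild type thus followed a single arch with its top at 170 days, while the mutant was high at 150 days, low at 170 days and high again from 190 days on. In 89 of the 93 clones the wild type had its highest level at 170 days, against 23.1% of all clones. In 70 of the 93 the mutant had its lowest level at 170 days (19.3% of all clones) and in 52 its highest at 220 days (15.8% of all clones). The choice by the ratios at 170 and 220 days favours such levels on those days, so these 3 counts are a description and nothing is read from the shares. With the genotypes exchanged at 170 days the dip of -1.30 would belong to the wild type and the peak of 1.07 to the mutant, so that 1 genotype shows a dip under either labelling.

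Each step between collections was counted where the level differed 2-fold on both pairs of arrays with matching dyes. From 120 to 150 days 63 of the 93 clones were 2-fold up in the mutant, where 11.3% of all clones were, and 34 were 2-fold up in the wild type, where 3.50% were. From 150 to 170 days 66 were 2-fold down in the mutant (13.3% of all clones) and 24 were 2-fold up in the wild type (5.79%). From 170 to 190 days 77 were 2-fold up in the mutant (13.1%) and 8 were 2-fold down in the wild type (5.19%). From 190 to 220 days 1 was 2-fold up in the mutant (1.18%) and 40 were 2-fold down in the wild type (6.29%). From 190 to 220 days the median step in the mutant was 0.45, against -0.99 in the wild type, so the wild type moved further than the mutant between these collections. Steps of 2-fold the other way were found in 0 of the 93 clones throughout. In the mutant, 4.07% of all clones were 2-fold down from 120 to 150 days, 5.93% up from 150 to 170 days, 6.95% down from 170 to 190 days and 0.991% down from 190 to 220 days. In the wild type, 2.44% were 2-fold down from 120 to 150 days, 2.32% down from 150 to 170 days, 3.21% up from 170 to 190 days and 4.56% up from 190 to 220 days. The conditions on the ratio touch the steps into and out of 170 and 220 days, and they also apply at both ends of the step from 120 to 150 days. How much each step owes to the choice was not tested. Arrays and days cannot be told apart in any of these steps, and none has a test. The count of 24 was 42 with the array of each day that holds the mutant in Cy5 alone, where the share of all clones was 10.8%. With levels and ratios set against the control spots Y1 to Y4, 2 of the 93 clones were 2-fold up in the wild type from 120 to 150 days (0.239% of all clones), 83 were up from 150 to 170 days (24.8%) and 84 were down from 190 to 220 days (33.3%). With the genotypes exchanged at 170 days the counts of 66, 24 and 77 would each be 0.

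**Figure D2:**
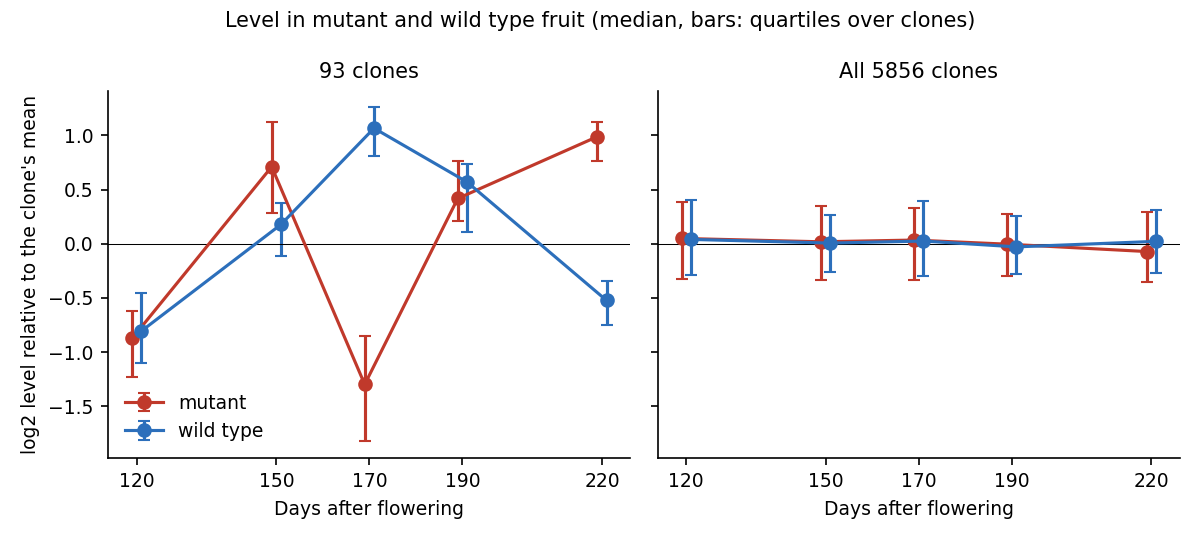
Median log2 level relative to each clone's own mean (vertical axis) against days after flowering, in the mutant (red) and the wild type (blue), for the 93 clones on the left and all 5856 clones on the right, with bars for the quartiles over clones. At 170 days the mutant stands at -1.30 and the wild type at 1.07, and at 220 days the mutant stands at 0.99 and the wild type at -0.52, while the medians of all clones stay near 0.

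Clones that shared the higher ratio at 220 days but not the lower one at 170 days were set beside them. Without the condition at 170 days 125 clones were 2-fold higher at 220 days and met the conditions at 120 and 150 days. The 32 of these that were not 2-fold lower at 170 days had a median ratio of -0.47 on that day, 0.09 at 150 days and 1.32 at 220 days. Of the 32, 2 (6.25%) were 2-fold up in the mutant from 120 to 150 days, against 63 of the 93 (67.7%) and 11.3% of all clones. In the wild type the counts for the same step were 6 of 32 (18.8%) and 34 of 93 (36.6%), against 3.50% of all clones. From 190 to 220 days 8 of 32 (25%) and 40 of 93 (43%) were 2-fold down in the wild type, against 6.29% of all clones. The 2 sets are split by the ratio at 170 days, which the choice used, so the comparison is a description. These differences between the 2 sets were not tested.

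The ratio at 190 days was the only one that did not enter the choice of clones. Over all clones it correlated with the ratio at 150 days at 0.605 and 0.657, and with that at 170 days at -0.27 and -0.23. With the ratio at 220 days it correlated at 0.16 and 0.20, and with that at 120 days at 0.12 and 0.14. The conditions on these days therefore bear on it indirectly. At 190 days the 93 stood on both sides of 0. The ratio was above 0 on both arrays in 36 clones, below 0 on both in 49 and split in 8, where 44.3% of all clones were above 0 on both and 42.8% below. It was 2-fold higher in 7 clones, or 7.53%, where 6.22% of all clones were, a share near the background. It was 2-fold lower in 0 clones, where 4.80% of all clones were, and with either array alone it was 2-fold lower in 1 or 2. The 7 higher clones were 20.H.6 (1.68 and 1.86 on the 2 arrays), 12.B.11 (1.69 and 1.72), 9.H.7 (1.55 and 1.83), 29.D.8 (1.23 and 1.26), 11.E.6 (1.19 and 1.28), 29.B.9 (1.23 and 1.05) and 4.A.7 (1.11 and 1.09). Next came 12.A.12, with 1.37 and 0.99. At 170 days 20.H.6 stood at -1.89 and -2.05 and 12.B.11 at -1.87 and -1.79, above the median of the 93. The lowest at 190 days were 4.G.1 (-1.19 and -0.97), 28.A.7 (-0.70 and -1.03), 4.H.11 (-0.96 and -0.65), 2.H.11 (-1.10 and -0.48), 12.F.9 (-0.71 and -0.80) and 24.E.8 (-0.67 and -0.82). These clones had passed to at least 1.01 at 220 days on both arrays, so the change of side lay between 190 and 220 days for them and between 170 and 190 days for the 7.

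**Figure D3:**
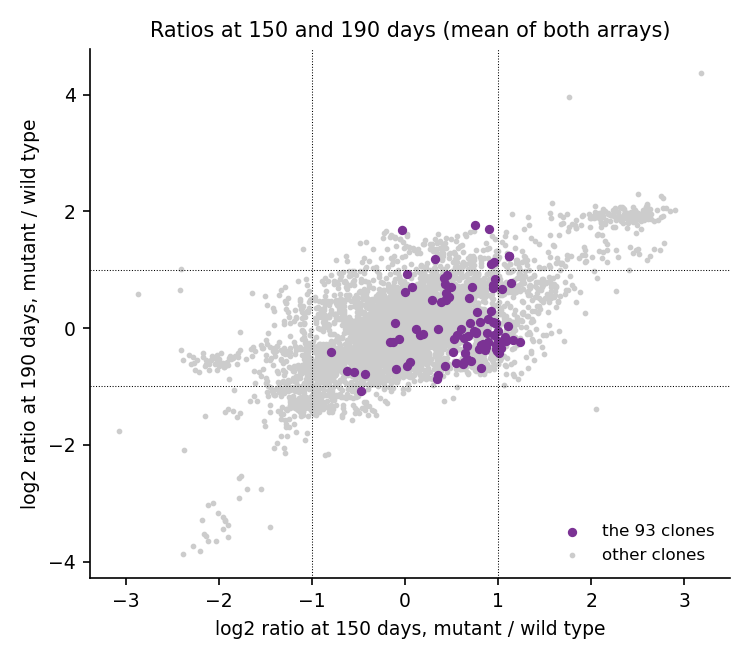
Log2 ratio at 190 days (vertical axis) against that at 150 days (horizontal axis), mutant over wild type and mean of both arrays, for the 93 clones (purple) and the other clones (grey), with dotted lines at 1 and -1. The 93 clones stand mostly to the right of 0 at 150 days, with a median of 0.69, and on both sides of 0 at 190 days, with a median of -0.09.

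The 93 clones were also listed by how alike their profiles were. Any pair of them correlated over the 10 arrays at 0.45 to 0.9999, with a median of 0.925, but the choice by 170 and 220 days alone makes such values high. Clones with a correlation of at least 0.97 to a common clone were listed together. A limit of 0.97 does not remove the effect of the choice, so the groups are a description. The clones formed 5 such groups with 75 clones, and 18 clones stood in none. Within a group clones correlated less closely with one another, down to 0.899 in group 1, whose mean ratios at 170 days ran from -4.77 to -1.12. Clones of a group may carry the same transcript, which the files do not tell, so the 93 are not 93 independent genes.

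Group 1 held 46 clones from 25 plates around clone 27.B.3. Its median ratios, in order of time, were -0.05, 0.82, -3.09, -0.24 and 1.51. It is the group with the deepest difference at 170 days, and the mean ratio of every clone in it was at least 0.20 at 150 days. Over the whole array 87 clones correlated with 27.B.3 at 0.97 or more, of which 18 were left out of the 93 for being 2-fold higher at 150 days and 23 for missing the threshold at 170 or 220 days. The threshold thus divides a continuous set. The closest pair, 20.E.5 and 22.E.11, correlated at 0.9999 and came from different plates.

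Clone 27.B.3 had ratios of -0.07 and -0.13 at 120 days and of 0.89 and 1.13 at 150 days. On the 170-day arrays they were -3.58 and -3.47, on those of 190 days -0.40 and -0.46, and on those of 220 days 2.23 and 2.02. Its mutant intensity at 170 days was 2310 and 1449, against 33606 and 26540 in the wild type. At 220 days it was 20333 and 20283 in the mutant, against 2340 and 2924 in the wild type. The wild type was the brighter on both arrays of 170 days and the mutant on both of 220 days, which the choice favours. The largest step between the 2 days was that of 4.H.11, also of group 1, with -4.87 and -4.68 at 170 days and 1.39 and 1.56 at 220 days. Next came 23.C.7, 24.F.10, 25.C.7, 28.C.6 and 27.B.3, whose mean ratio at 220 days exceeded that at 170 days by 5.65 to 6.01. In 25.C.7 the wild type intensity on the 220-day array with the mutant in Cy5 was 707. That is not above the 95th percentile of spots with no cDNA, 822, so its step is not exact.

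Groups 2 to 5 were shallower at 170 days and differed from group 1 at 150 or 190 days. Group 2, 15 clones around 28.E.9, had medians of -0.26, 0.45, -1.61, 0.60 and 1.37 from 120 to 220 days, so it was already above 0 in the mutant at 190 days. Group 3, 6 clones around 11.E.6, had medians of -0.62, 0.93, -2.10, 1.17 and 1.31, the highest of the 5 groups at 190 days, and it held 4 of the 7 clones that were 2-fold higher then. Group 4, 5 clones around 12.F.9, had medians of -0.36, -0.43, -1.91, -0.74 and 1.28 and was above 0 only at 220 days. Group 5, 3 clones around 29.C.9, had medians of -0.84, 0.33, -1.72, 0.90 and 1.19. In 29.C.9 and 12.A.12 of this group the wild type intensity was 621 and 783 on the 220-day array with the mutant in Cy5. Neither was above the 95th percentile of spots with no cDNA, 822.

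The levels of the leading clones show how the groups part. In 11.E.6 the mutant level was -0.73, 0.64, -1.12, 0.63 and 1.01 from 120 to 220 days, against -0.18, -0.47, 1.17, -0.61 and -0.34 in the wild type, so that the wild type was high at 170 days only. In 12.F.9 the mutant level was -0.81, -0.20, -0.75, -0.09 and 0.59, against -0.40, 0.34, 1.16, 0.67 and -0.50 in the wild type, which was the higher genotype on the first 4 days. In 27.B.3 the mutant level was -1.55, 1.28, -1.82, 0.65 and 0.99, against -1.45, 0.27, 1.70, 1.08 and -1.14 in the wild type. The genotypes of 27.B.3 started together at 120 days after normalization. Its intensities that day were 900 and 1621 in the mutant, against 4116 and 3339 in the wild type. In all 5 leading clones the wild type was highest at 170 days, which the choice favours, and in 29.C.9 only by 0.76 against 0.64 at 120 days.

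**Figure D4:**
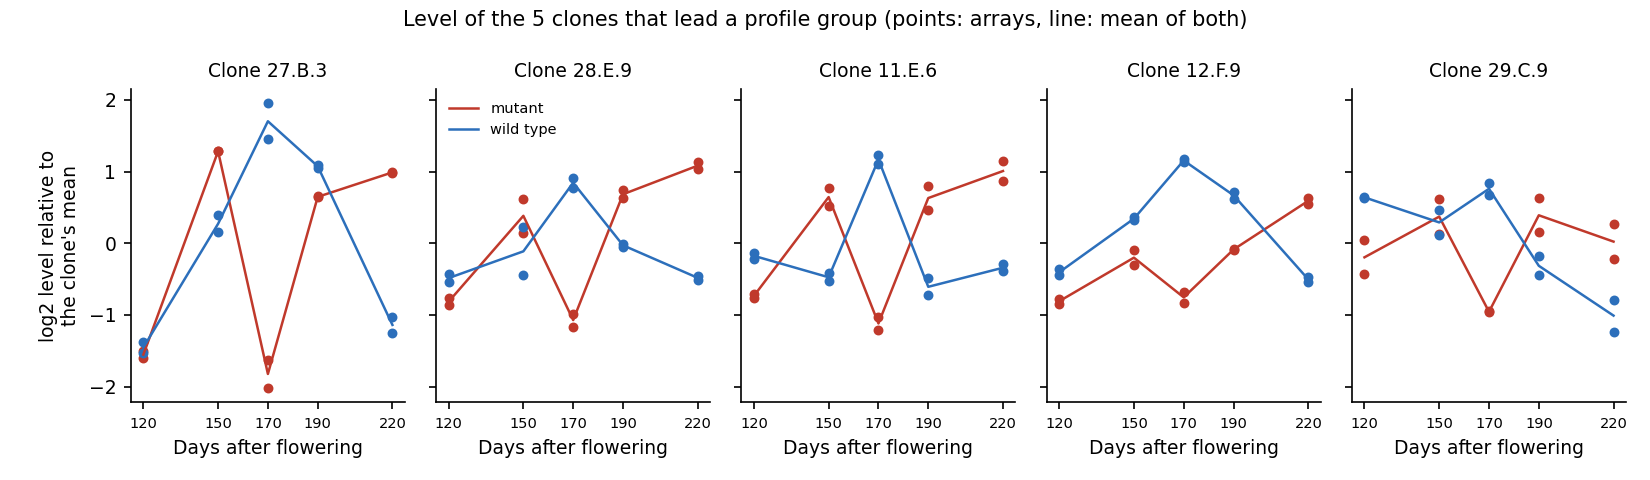
Log2 level relative to the clone's own mean (vertical axis) against days after flowering for the 5 clones that lead a profile group, in the mutant (red) and the wild type (blue), with a point per array and a line through the mean of both arrays. The wild type is highest at 170 days in all 5, and the mutant is lowest at that day in 27.B.3, 28.E.9, 11.E.6 and 29.C.9 but not in 12.F.9, where it is lowest at 120 days.

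At 150 days the conditions divided clones with similar values. Of the 93 clones, 77 were above 0 on both arrays, where 43.3% of all clones were, and 31 reached 1 on 1 array but not on the other. None was 2-fold lower, against 5.55% of all clones, and 0 were 2-fold higher by the choice (7.17% of all clones). The 63 clones that met the conditions at 170 and 220 days but were 2-fold higher at 150 days had a median of 1.53 there and of 0.56 at 190 days, where 21 of them, 33.3%, were 2-fold higher. The 93 had -0.09 at 190 days, with 7.53% 2-fold higher, and this difference was not tested. The 2 arrays of 150 days differed by more than 1 for 6 of the 93 clones, and for 2.12% of all clones, with 13.H.1 at -1.95 and 1.98 and 9.H.7 at -0.87 and 0.81. All 3 spots of 13.H.1 and of 9.H.7 were below 0 on the array with the mutant in Cy5 and above 0 on the other. The 150-day ratios of these clones are therefore not settled.

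At 120 days 2 of the 93 clones were 2-fold higher in the mutant, against 3.64% of all clones, and 0 were 2-fold lower by the choice (5.19% of all clones). They were 36.F.10, with 1.16 and 1.14, and 31.B.6, with 1.11 and 1.17, next to 4.C.11 with 0.55 and 0.62. Clones 36.F.10 and 31.B.6 were alike on the other days as well: both lay between -0.29 and 0.04 at 150 days. At 170 days 36.F.10 stood at -1.59 on both arrays and 31.B.6 at -1.65 and -1.73. At 220 days 36.F.10 stood at 1.005 and 1.06 and 31.B.6 at 1.16 and 1.13. They were the only clones of the 93 that were 2-fold higher, 2-fold lower and 2-fold higher again in the mutant over time on both arrays of those days. Another 40 clones met the conditions at 170 and 220 days but were 2-fold lower at 120 days. Those had a median of -1.67 at 120 days and -1.15 at 150 days, so they stood on the other side of 0 from the 93 at 150 days.

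Clone 44.G.6 missed the threshold at 220 days most narrowly, just under 1 on 1 array and 1.05 on the other, with 1.04 and 1.12 at 120 days and -1.49 and -1.33 at 170 days. Just outside lay also 6.E.8, just under 1 and at 1.11 at 220 days, and 3.H.11, at -1.30 and just above -1 at 170 days. Just inside lay 36.F.10, with 1.005 and 1.06 at 220 days, 7.C.11, with -1.01 and -1.09 at 170 days, and 4.G.1, with 1.01 and 1.37 at 220 days. At 220 days 36.F.10 and 44.G.6 differed by less than the median SD between arrays.

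The mean level of both genotypes, which the choice did not use, was tested for a slope over the 5 days. In limma, 0 of the 93 clones passed an adjusted p of 0.05 in either direction, where 2.74% of the 5846 clones tested were called rising and 0.582% falling. At an unadjusted p under 0.05 in limma 28 of the 93 had a slope above 0, or 30.1%, against 10.3% of all clones, and 0 a slope below 0, against 12.1%. The slope was above 0 in 90 of the 93 clones, against 44.6% of all, with a median of 0.89 per 100 days against -0.08. The lowest p was that of 21.E.1, with a slope of 1.94 per 100 days (SE 0.40, n = 5 days, adjusted p = 0.0514 in limma), which just misses the threshold. With all 10 arrays entered and the day as a random block, 10 clones passed as rising with the replicate number as a block (5.32% of all clones) and 12 without it (5.85%), and without 150 days 15 passed (6.81%). Without 120 days the median slope was -0.02, so the direction of the slope over the clones rests on the low levels of that day. The levels follow an arch in the wild type, and a slope describes them poorly.

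Of the 93 clones, 86 came from plates 1 to 29, or 92.5%, against 47.5% of all clones. Clones 2-fold lower at 170 days came from those plates in 60.8% of cases, and clones 2-fold higher at 220 days in 75.4%. The 93 were spread over 34 of the 61 plates and 31 of the 48 printing blocks, and plate 18 held the most, with 8. The labels do not say how the plates differ. The share of plates 1 to 29 was 44 of 46 in group 1, 15 of 15 in group 2, 5 of 6 in group 3 and 14 of 18 in the clones of no group.

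**Figure D5:**
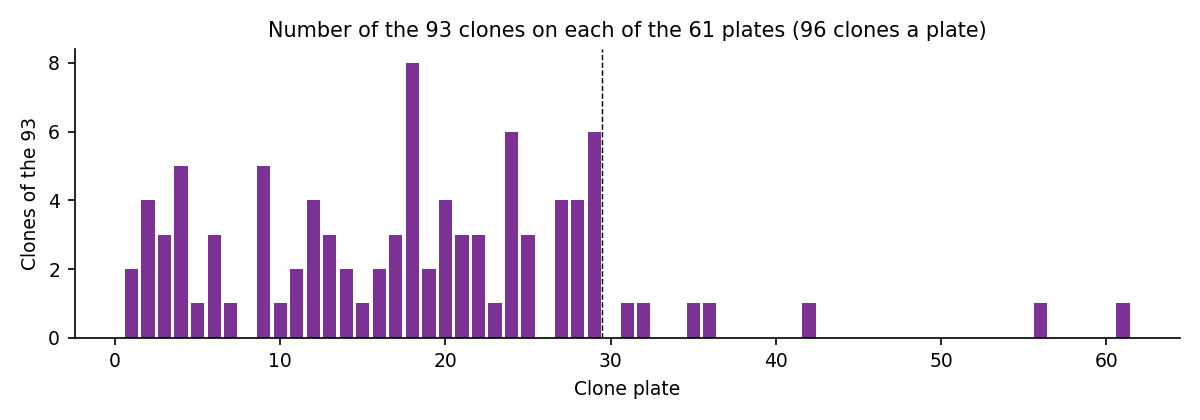
Number of the 93 clones (vertical axis) on each of the 61 clone plates (horizontal axis), with 96 clones on each plate and a dashed line between plates 29 and 30. Plates 1 to 29 hold 86 of the 93 clones and plates 30 to 61 hold 7.

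The authors' deposited table of lowess ratios, which holds 1 value per clone and day, lists 93 of the 93 clones at 170 and 220 days. Of these, the authors' deposited table has 87 2-fold lower in the mutant at 170 days and 90 that are 2-fold higher at 220 days, with median log2 ratios of -2.17 and 1.44. That table comes from the same arrays as the choice of clones, so these counts are no independent check. The shares of all clones in that table are not given here. At 190 days the authors' deposited table has 5 of them 2-fold higher and another 2 lower by 2-fold. Without the shares of all clones nothing is read from these counts. Applied to the authors' series table of single arrays, the same conditions gave 114 clones, 67 of them among the 93. With control spots Y1 to Y4 as the centre of each array they gave 77 clones, of which 2 were among the 93, so which clones are named depends on the typical clone being equal in both genotypes. The median ratio of the 93 at 120 days was -2.19 with that centre, against -0.17.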

How the data were processed

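Per the file headers, the authors deposited for each of the 10 arrays a Cy5 and a Cy3 intensity per spot. Intensities reach below 0, so background had been subtracted. Sources used here do not give the scanner or the background method. The authors also deposited a normalized ratio of mutant over wild type for each spot, whose log2 is the deposited series table of log2 values, and a table of lowess ratios per clone. Scale and direction of the series table follow from its comparison with the intensities (Spearman's rho 0.92 to 0.97). Labelling started from 5 µg of total RNA per sample, amplified and labelled with Klenow enzyme, per the labels' protocols.

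From the intensities, log2 ratios were computed without values at or below 0, loess-normalized over each whole array (controls at weight 0) and averaged over the 3 spots of a clone. Levels were loess-normalized and then quantile-normalized between arrays (Aquantile). The slope of the mean level on days was fitted in limma 3.58.1 (R 4.3.3) with eBayes over 5846 clones and 5 values, 1 per day, two-sided, with Benjamini-Hochberg adjustment, 3 residual degrees of freedom before moderation, and tested on simulated data. A clone entered if either dye exceeded the 95th percentile of blank and solvent spots on at least 5 arrays (5852 clones). The p-values measure the spread between 5 collections. The number of arrays limits the precision.

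The count of 2-fold level steps was chosen after the files were seen. The clones and the lists were chosen with earlier results of these data known. Named clones are those with the largest difference between 220 and 170 days, the extremes at 190, 120 and 150 days, and those nearest to the threshold. Clones named outside that rule were chosen after their values were seen. Alternatives were other normalizations and centres, thresholds, single arrays, days left out and the replicate block.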

Additional observations from a re-analysis of the deposited data

Results flagged for a closer look

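The median ratio of the 93 clones had opposite signs on all arrays of 2 days in 6 pairs of days. The differences between days were not tested. The later minus the earlier day gave 0.85 for 150 and 120 days (0.69 against -0.17), 1.54 for 220 and 120 days (1.37 against -0.17) and -2.91 for 170 and 150 days (-2.22 against 0.69). It gave -0.78 for 190 and 150 days (-0.09 against 0.69) and 1.47 for 220 and 190 days (1.37 against -0.09). It gave 3.59 for 220 and 170 days (1.37 against -2.22). Each of the 6 pairs includes at least 1 of the days by which the clones were chosen, so none is free of that choice. With the genotypes exchanged at 170 days, 170 and 150 days and 220 and 170 days would have the same sign. In turn, 170 and 120 days and 190 and 170 days, which share a sign as labelled, would then have opposite signs.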

How the results depend on the processing

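Under the alternatives to the normalization, the spots and the arrays, 77 to 128 clones met the conditions, and 118 when the mean of both arrays was used. The clones that met them included 2 of the 93 with the control spots Y1 to Y4 as centre. In the other of these settings they included 67 to 93 of the 93. A threshold of 0.8 gave 144 clones (67 of the 93), a threshold of 1.5 gave 41 (28 of the 93), and leaving out the conditions at 120 and 150 days gave 197. With the sign at 170 days turned 0 clones met them. Clones 2-fold lower at 190 days, 0 in the report, numbered 1 with median centring, with loess within printing blocks, with the control spots Y1 to Y4 as centre and at a threshold of 0.8. They numbered 2 in the authors' series table, in the lowess table and without the condition at 170 days, and 1 to 2 without either replicate. Clones 2-fold higher at 190 days, 7 in the report, numbered 3 at a threshold of 1.5 and 31 of the 197 without the early conditions, whose median at 190 days was 0.04. With the control spots as centre the medians were -2.19 at 120 days, 0.45 at 150 days and -0.30 at 190 days. Clones with a rising level, 0 in the fit of 5 days, numbered 10 with the replicate block (5.32% of all clones) and 12 without it (5.85%) on all 10 arrays, 3 with the control spots as centre of the levels (3.54%) and 15 without 150 days (6.81%). The replicate numbers mark the dye orientation. The deviations of same-numbered arrays from their day means correlated over the 10 pairs of days at -0.316 to 0.196 for levels and 0.065 to 0.415 for ratios, so the numbers were not taken as pairing the samples. In the wild type, 2 clones were 2-fold up from 120 to 150 days (0.239% of all clones), 83 from 150 to 170 days (24.8%) and 84 2-fold down from 190 to 220 days (33.3%) with the control spots as centre. The wild type count from 150 to 170 days was 32 without replicate 1 (11.8% of all clones) and 42 without replicate 2 (10.8%). With the genotypes exchanged at 170 days the mutant count from 150 to 170 days, the wild type count from 150 to 170 days and the mutant count from 170 to 190 days were each 0. The alternatives on levels other than the slope were added after seeing the data. The cause of these differences was not tested.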
